A study of Mus musculus with 12 samples.

Results

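The genes described here serve fat cells and the storage of lipid: Pparg, Lpl, Cd36, Fabp4, Plin1, Plin4, Cidec, Adipoq, Retn and Cfd. They were listed by name, and 9 of the 10 carried a probe set with a single symbol among the 19937 genes measured. Cfd, the serum protease adipsin, was not analysed here because the probe annotation used gave it no probe set with a single symbol. Each of the 9 had 1 such probe set, so no choice among probe sets entered their values.

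The study follows rhabdomyosarcoma-like tumours driven by YAP1, the transcriptional co-activator held in check by Hippo signalling, when the oncogene is switched off. All donor cells and control tissue came from C57BL/6 mice that carry Myf5Cre, R26-LSL-rtTA and Col1a-Teto-hYAP1 S127A, so that doxycycline turns on mutant human YAP1 in cells with a history of Myf5 expression. CTL was hindlimb muscle of such mice that were never induced. TUM was the tumour at day 0, grown in the gastrocnemius of doxycycline-treated NOD/SCID mice from hindlimb interstitial cells of donors given doxycycline for 4 weeks. OFF3 and OFF6 were such tumours 3 and 6 days after the hosts' doxycycline was removed. Each group had 3 arrays. The tumours grew in an immunodeficient host of another strain, which keeps its own fat, vessels and macrophages, while CTL held no graft, so host strain and graft cannot be told apart from the difference between muscle and tumour. The labels give no ages and do not say that replicates were separate animals, so p-values measure the spread between these samples only.

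Fat cells are built by the nuclear receptor PPARγ, made from Pparg, together with C/EBP factors. Lipoprotein lipase (Lpl) frees fatty acids from circulating fat, CD36 takes them up, and the carrier FABP4 moves them inside the cell, where perilipins (Plin1, Plin4) and CIDEC coat and enlarge the droplet of stored fat. Adiponectin (Adipoq) and resistin (Retn) are hormones that mouse fat cells secrete. Fat cells are rare in healthy muscle and lie between the fibres, but Lpl, Cd36 and Plin4 are also active in muscle fibres, Cd36 and Fabp4 in capillary endothelium, and Lpl, Cd36, Fabp4 and Pparg in macrophages. In whole tissue, fewer cells of a type and less RNA per cell cannot be told apart.

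Pparg (chr6:115360879-115490404, GRCm38.p6) is transcribed from several starts, and PPARγ2 from an internal start is the form typical of fat cells, but the array has 1 Pparg probe set and cannot separate them. Of the 3 starts listed in RefSeq, the second and the third are shown with the 250 bases before each (GRCm38.p6, gene strand, 5′ to 3′), because Pparg had the largest rise of all members after doxycycline removal. Cd36, which also rose, and Adipoq, which did not pass the test against TUM at either time, are given for comparison. The Cd36 window belongs to the only start listed for it. It lies inside the gene's span (chr5:17781690-17888959), and any start further upstream was not searched. Capitals mark matches on either strand to TTNNGCAA, a core bound by C/EBP factors, or AGGTCA, a core bound by many nuclear receptors. No matches overlapped.
Pparg start 2, chr6:115362099-115362348, plus strand: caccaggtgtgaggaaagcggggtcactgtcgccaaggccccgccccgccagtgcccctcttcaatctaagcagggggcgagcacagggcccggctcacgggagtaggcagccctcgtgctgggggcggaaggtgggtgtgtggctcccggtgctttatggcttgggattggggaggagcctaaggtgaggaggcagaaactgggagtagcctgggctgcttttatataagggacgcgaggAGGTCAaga
Pparg start 3, chr6:115421816-115422065, plus strand: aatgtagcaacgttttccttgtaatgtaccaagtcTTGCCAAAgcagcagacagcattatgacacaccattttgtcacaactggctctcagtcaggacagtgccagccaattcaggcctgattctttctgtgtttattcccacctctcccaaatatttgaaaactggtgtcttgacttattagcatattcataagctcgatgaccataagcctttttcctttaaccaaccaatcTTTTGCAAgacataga
Cd36, chr5:17835897-17836146, minus strand: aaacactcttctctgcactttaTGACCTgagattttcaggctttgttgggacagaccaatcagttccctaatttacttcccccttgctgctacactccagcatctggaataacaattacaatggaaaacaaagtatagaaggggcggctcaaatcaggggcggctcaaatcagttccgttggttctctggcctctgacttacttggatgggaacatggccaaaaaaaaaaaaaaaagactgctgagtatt
Adipoq, chr16:23146286-23146535, plus strand: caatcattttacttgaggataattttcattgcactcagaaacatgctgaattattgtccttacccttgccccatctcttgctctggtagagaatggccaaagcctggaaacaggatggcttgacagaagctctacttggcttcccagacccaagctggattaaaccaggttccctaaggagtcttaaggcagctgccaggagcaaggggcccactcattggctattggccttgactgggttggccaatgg

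The Pparg starts differed in composition. GC content was 82.4% before the first start, 63.6% before the second and 40.8% before the third, against a median of 52.4% over 32851 mouse windows of the same length. AGGTCA occurred before the first and the second Pparg start, in the second 9 bases before the start, and TTNNGCAA occurred at 2 places before the third, the nearer 16 bases before it. Cd36 held AGGTCA once and Adipoq held neither. Over the 11 windows of the 8 members with an entry, 3 held TTNNGCAA (1 each of Plin1, Pparg and Cidec) and 3 held AGGTCA. Of all 32851 windows, 9.56% held TTNNGCAA and 14% held AGGTCA. A match describes the letters, and the arrays do not measure binding.

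Across arrays, median intensity ran from 86.7 to 93.0, and arrays of 1 group correlated at 0.991 or more over all genes. OFF6 replicate 2 stood apart from its group: its mean correlation was 0.991 with the other OFF6 arrays and 0.995 with the OFF3 arrays. Results at day 6 include it unless the text says otherwise. Differences of single genes outside the member list are given only with it. Muscle fibre markers marked CTL as muscle: the summed intensity of 12 markers was 90061 to 93349 in CTL and 25196 to 57317 over the tumour arrays. The deposited values carry no detection calls, so whether a member with low intensity in the tumours was detected there is not known, and its fold change can be understated.

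All 9 measured members were higher in control muscle than in the day 0 tumours, and the arrays of the 2 groups did not overlap for any of them. The differences ran from 0.92 log2 units for Pparg to 4.31 for Retn, with a median of 2.73, while the median over all 19937 genes was 0.15. A call means a Benjamini-Hochberg adjusted p under 0.05 over all genes in limma. Calls were common in this comparison, since 45.9% of all genes were called higher in muscle and 82.7% did not overlap in either direction. Other scalings of the arrays gave medians over all genes from 0.00 to 0.29, and all 9 members stayed called under each. With cyclic loess, 6125 genes were called higher and 6186 lower in muscle, in place of 9161 and 6038.

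**Figure D1:**
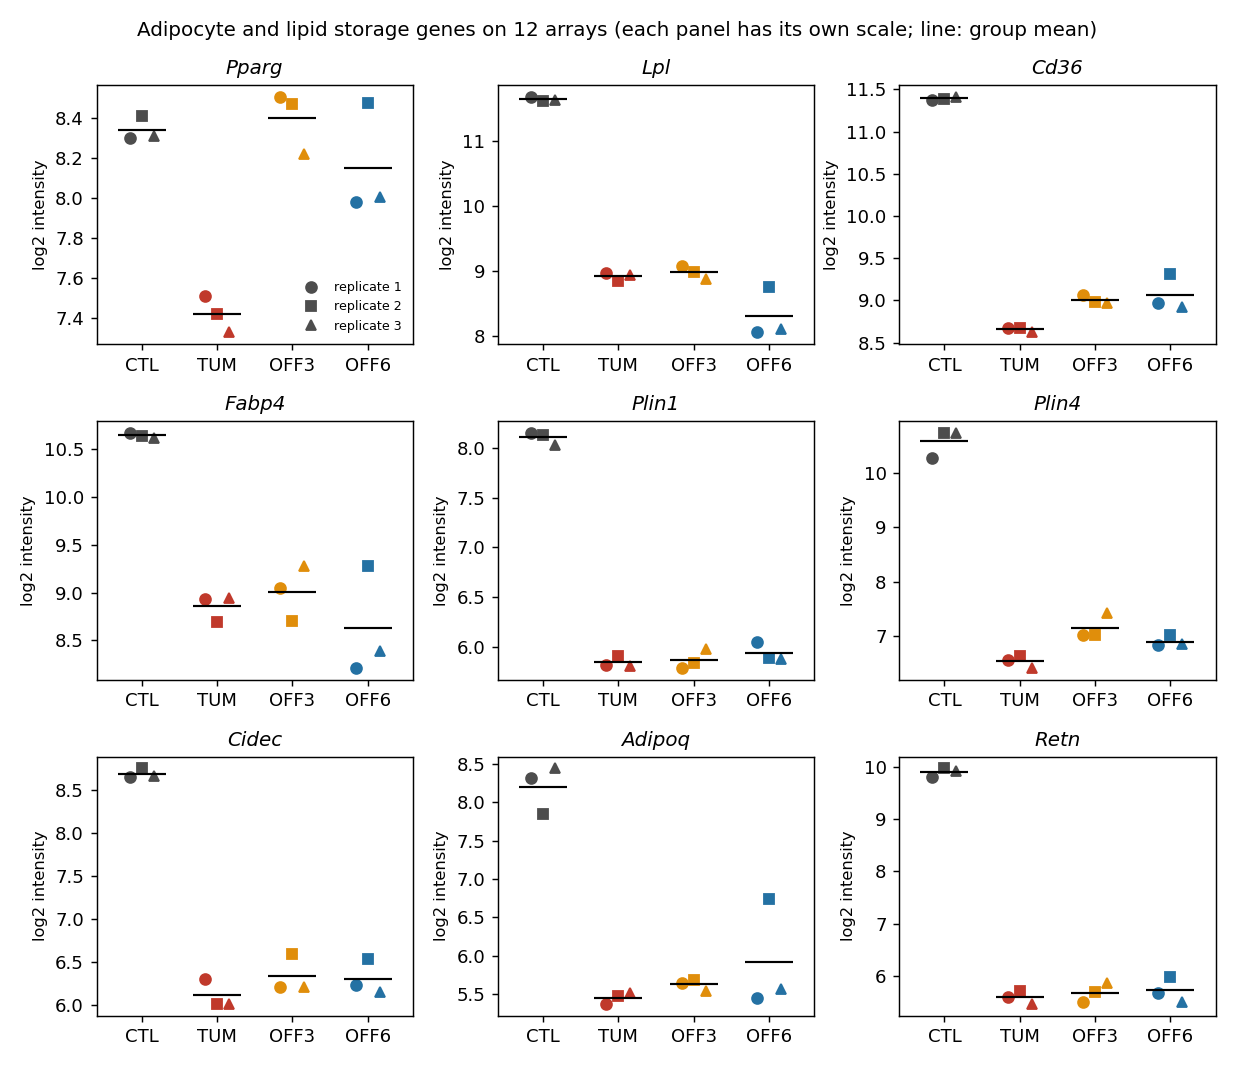
Log2 intensity (y axis, own scale per panel) of each measured member on the 12 arrays, by group (x axis: CTL muscle, TUM day 0, OFF3, OFF6), with marker shapes for replicates and a line for the group mean. All 3 muscle arrays lie above every tumour array except for Pparg, which returns to the muscle range at day 3, and OFF6 replicate 2 (square) is the highest array of its group in 8 of 9 panels.

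After doxycycline removal most of these genes did not pass the test against TUM. At day 3, Pparg, Plin4 and Cd36 rose and none fell. At day 6, Pparg and Cd36 rose and Lpl fell. The other members, among them the fat cell markers Adipoq, Plin1, Cidec and Retn, passed at neither time and stayed 4.47- to 18.7-fold below muscle, except Fabp4, which stayed 3.10- to 4.04-fold below it. Over all genes, 13.4% were called higher and 16% lower at day 3 (29.4% in all), and 14.9% higher and 16.6% lower at day 6 (31.5% in all). The 3 members called at each time are thus about the share found over all genes. The arrays of 4 members did not overlap with TUM at each time, where 44.8% of all genes at day 3 and 48.5% at day 6 did not. No member changed by 2-fold or more with a call, which 3.81% of all genes did at day 3 and 4.47% at day 6. OFF3, OFF6 and CTL are compared with the same TUM arrays and share their error.

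**Figure D2:**
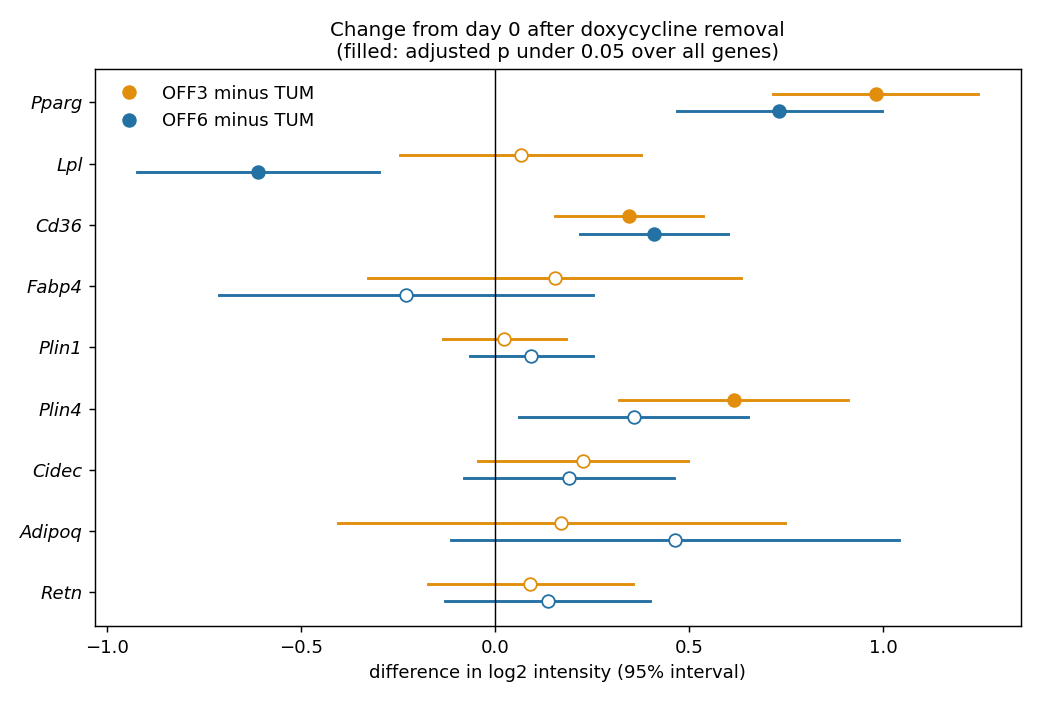
Difference in log2 intensity from the TUM arrays (x axis) for each member at day 3 and day 6, with 95% intervals from the limma fit; filled points are called. Pparg has the largest rise at both times (0.98 and 0.73), and Lpl at day 6 is the only called fall (-0.61).

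Pparg, the transcription factor of the set, read 8.30, 8.41 and 8.31 on the CTL arrays (log2 intensity, replicates 1 to 3). It read 7.51, 7.42 and 7.33 in TUM, 8.51, 8.47 and 8.22 in OFF3, and 7.98, 8.47 and 8.0 in OFF6. Every array after doxycycline removal lay above every TUM array, and the OFF3 arrays overlapped those of muscle. The rise at day 3 was 0.98 ± 0.12 log2 units (SE, n = 3 per group; 1.97-fold; adjusted p = 5.96e-05 in limma), and that at day 6 was 0.73 ± 0.12 (1.66-fold; adjusted p = 0.000509). Without OFF6 replicate 2 the rise at day 6 was 0.57 (adjusted p = 0.000287 in limma).

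Day 3 tumours and muscle differed in Pparg by 0.06 log2 units, with a 95% interval from -0.21 to 0.32. The sign of this small difference turned to -0.19 with quantile normalisation, -0.11 with arrays centred on their median and -0.03 with cyclic loess. On the log2 scale, Pparg covered 106% of the distance from TUM to CTL at day 3 and 79.5% at day 6, or 62.0% at day 6 without OFF6 replicate 2. No other member covered more than 15.2% at day 3 (Plin4) or 16.9% at day 6 (Adipoq). Without OFF6 replicate 2, Adipoq covered 1.89% at day 6 and the highest of the others was Cd36 with 10.6%. Without OFF6 replicate 2, Pparg was called lower at day 6 than at day 3 (-0.41, adjusted p = 0.00484 in limma; -0.25 ± 0.12, adjusted p = 0.237 with it; 4.17e-05 to 0.62 over all alternatives). It was then also called lower than in muscle (-0.35, adjusted p = 0.00450; -0.19, adjusted p = 0.188 with it; 0.00241 to 0.506 over all alternatives). Quantile normalisation (-0.43) and centring on the median (-0.37) gave that last call as well.

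Lpl, the lipase of the capillary surface, read 11.69, 11.62 and 11.64 in CTL and 8.98, 8.84 and 8.94 in TUM. It read 9.08, 8.99 and 8.88 in OFF3 and 8.06, 8.75 and 8.11 in OFF6. All 3 OFF6 arrays lay below every OFF3 and every TUM array, with replicates 1 and 3 much the lowest. Lpl was 6.62-fold lower in TUM than in muscle (adjusted p = 2.11e-09 in limma) and 10.1-fold lower in OFF6 than in muscle (5.60e-10). With all arrays weighted equally it was the only member further from muscle at day 6 than at day 0 by a called margin, at -0.61 ± 0.14 log2 units (adjusted p = 0.00554). Fabp4 was called lower at day 6 as well without OFF6 replicate 2 (-0.55, adjusted p = 0.00677) and with array weights (-0.52, adjusted p = 0.00101). At day 3 Lpl differed from TUM by 0.07 ± 0.14. Its day 6 difference from TUM was -0.83 without OFF6 replicate 2 (adjusted p = 2.00e-06 in limma).

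Between the regression times, OFF6 minus OFF3 was -0.68 ± 0.14 for Lpl (adjusted p = 0.0135 in limma), the only member called there with all arrays in and equally weighted. Over all genes, 10.4% were called between these times, 6.05% higher and 4.38% lower, 21.2% did not overlap, as Lpl and Plin4 did not, and 0.542% were called with a change of 2-fold or more. That call was lost without OFF3 replicate 1 (-0.63, adjusted p = 0.0523), OFF6 replicate 1 (-0.55, 0.067) or OFF6 replicate 3 (-0.58, 0.0756), and in a model of only those 6 arrays (0.124). Without OFF6 replicate 2 the fall was larger, -0.90 with adjusted p = 3.46e-06 (1.18e-07 to 0.124 over all alternatives). Gpihbp1, the endothelial protein that anchors the lipase, was lower than in TUM at day 3 (-0.46 ± 0.13, adjusted p = 0.0162) and at day 6 (-0.70 ± 0.13, adjusted p = 0.00101). The lipase inhibitor Angptl4 fell at day 6 (-0.59 ± 0.12, adjusted p = 0.00167).

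Cd36, the fatty acid translocase, read 11.38, 11.39 and 11.41 in CTL and 8.67, 8.67 and 8.62 in TUM. It read 9.06, 8.98 and 8.97 in OFF3 and 8.97, 9.31 and 8.92 in OFF6. The arrays of both regression groups lay wholly above TUM and far below muscle. Cd36 rose by 0.35 ± 0.09 log2 units at day 3 (1.27-fold, adjusted p = 0.00964 in limma) and 0.41 ± 0.09 at day 6 (1.33-fold, adjusted p = 0.00304), and was still 5.01-fold below muscle at day 6. Days 3 and 6 differed by 0.06 log2 units, with a 95% interval from -0.13 to 0.26. Without OFF6 replicate 2 the rise at day 6 was 0.29 (adjusted p = 0.00195 in limma).

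Fabp4, the fatty acid carrier, read 10.67, 10.64 and 10.62 in CTL and 8.93, 8.70 and 8.94 in TUM. It read 9.05, 8.70 and 9.27 in OFF3 and 8.21, 9.28 and 8.39 in OFF6. OFF6 replicates 1 and 3 were the lowest of all 12 arrays, and OFF6 replicate 2 the highest of the tumour arrays. The mean at day 6 differed from TUM by -0.23 ± 0.22 log2 units (adjusted p = 0.477 in limma). Without OFF6 replicate 2 the difference was -0.55 and was called (adjusted p = 0.00677; 0.00101 to 0.961 over all alternatives), as was the difference from day 3 (-0.71, adjusted p = 0.00226; 0.00226 to 0.79 over all alternatives). Fabp5, the related carrier, fell at day 6 (-0.91 ± 0.18, adjusted p = 0.00167) and differed by 0.23 ± 0.18 at day 3. In Fabp5, OFF6 replicate 2 lay 0.82 above the mean of replicates 1 and 3.

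Among the droplet coat genes, Plin4 read 10.27, 10.74 and 10.73 in CTL and 6.56, 6.64 and 6.41 in TUM. It read 7.02, 7.03 and 7.42 in OFF3 and 6.83, 7.01 and 6.85 in OFF6. Both regression groups lay above TUM with no overlap, and OFF6 below OFF3 with no overlap. Plin4 rose at day 3 by 0.62 ± 0.14 log2 units (1.53-fold, adjusted p = 0.00411 in limma). At day 6 the difference was 0.36 ± 0.14 (adjusted p = 0.0641 in limma), or 0.30 without OFF6 replicate 2 (adjusted p = 0.148). The day 6 difference was called in 6 of 21 alternatives (0.00377 to 0.213). Against a 16.5-fold gap between TUM and muscle, these shifts covered 15.2% and 8.86% of the log2 distance.

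Plin1, the coat protein specific to fat cells among the perilipins, read 8.15, 8.13 and 8.02 in CTL and 5.82, 5.92 and 5.81 in TUM. It read 5.79, 5.84 and 5.99 in OFF3 and 6.05, 5.89 and 5.88 in OFF6. The 9 tumour arrays lay close together, all far below the lowest muscle array. Its differences from TUM were 0.02 at day 3 (95% interval -0.13 to 0.18) and 0.09 at day 6 (-0.06 to 0.25), with adjusted p of 0.869 and 0.371 in limma. The day 3 value changed sign under each other scaling (-0.05 to -0.01).

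Cidec, which fuses lipid droplets, read 8.64, 8.74 and 8.66 in CTL and 6.31, 6.02 and 6.02 in TUM. It read 6.22, 6.60 and 6.21 in OFF3 and 6.24, 6.53 and 6.15 in OFF6. The 3 tumour groups overlapped. Its differences from TUM, 0.23 ± 0.12 at day 3 and 0.19 ± 0.12 at day 6, did not pass (adjusted p = 0.214 and 0.28 in limma). With array weights Cidec was called higher at day 3 (0.36, adjusted p = 0.00169; 0.00169 to 0.662 over all alternatives).

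Both adipokine genes were far lower in all tumour groups than in muscle. Adipoq read 8.32, 7.84 and 8.44 in CTL and 5.37, 5.47 and 5.52 in TUM. It read 5.65, 5.69 and 5.55 in OFF3 and 5.45, 6.74 and 5.56 in OFF6. OFF6 replicate 2 stood far above the other OFF6 arrays and still below every muscle array. The mean difference of OFF6 from TUM, 0.46 ± 0.27 (adjusted p = 0.219 in limma), was 0.05 without that array (adjusted p = 0.807; 0.0765 to 0.807 over all alternatives). At day 3 the arrays lay above TUM with no overlap, by 0.17 ± 0.27 (adjusted p = 0.716 in limma), as did 44.8% of all genes in either direction. With array weights that difference was 0.26 and was called (adjusted p = 0.0463; 0.0463 to 0.858 over all alternatives).

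Retn had the largest gap of all members, at 9.82, 9.97 and 9.93 in CTL against 5.59, 5.71 and 5.47 in TUM (19.9-fold, adjusted p = 1.07e-11 in limma). It read 5.49, 5.69 and 5.86 in OFF3 and 5.68, 5.99 and 5.51 in OFF6, all overlapping TUM. Its differences from TUM were 0.09 at day 3 (95% interval -0.17 to 0.36) and 0.14 at day 6 (-0.13 to 0.40). These intervals lie far from the 4.31 log2 units that separate TUM from muscle.

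Ordering the groups by mean gave muscle highest for 8 members. The tumour groups did not differ by a called margin in Retn and Plin1, nor in Adipoq, Cidec and Fabp4 with all arrays weighted equally. With array weights Adipoq and Cidec were called between TUM and OFF3 and Fabp4 between TUM and OFF6, and with OFF6 replicate 2 left out Fabp4 was called between OFF6 and each of TUM and OFF3. Array weights also called Cidec lower at day 6 than at day 3 (-0.36, adjusted p = 0.00514 in limma; 0.00514 to 0.999 over all alternatives), and Fabp4 likewise (-0.38, adjusted p = 0.0097). For Pparg the order was OFF3 (8.40), CTL (8.34), OFF6 (8.15) and TUM (7.42), with only the step to TUM called. For Cd36 it was CTL, OFF6, OFF3 and TUM, with OFF6 and OFF3 not separated, and for Plin4 it was CTL, OFF3, OFF6 and TUM, with OFF3 above TUM the only called step among tumours. For Lpl it was CTL, OFF3, TUM and OFF6, with OFF3 and TUM not separated. The calls in these orders take all arrays, equally weighted. With array weights Pparg was called lower in OFF6 than in OFF3 (-0.45, adjusted p = 4.17e-05 in limma) and than in CTL (-0.33, adjusted p = 0.00241). Plin4 was then called lower in OFF6 than in OFF3 (-0.20, adjusted p = 0.0452 in limma) and higher in OFF6 than in TUM (0.30, adjusted p = 0.00377). Against muscle, 8 members were lower at day 3, where 41.4% of all genes were called lower, and the same number at day 6, where 36.1% were. Pparg was the exception at both times, while the count at day 6 was 9 without OFF6 replicate 2. The background moved with the scaling here. At day 3, 5657 genes were called higher and 8253 lower than in muscle, and these numbers were 4665 and 12243 with arrays centred on their median and 6065 and 5805 with cyclic loess. At day 6 they were 5602 and 7188, then 4486 and 12001, and 5863 and 5420.

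OFF6 replicate 2 was the highest array of its group in 8 of 9 members and the lowest in none, while over all genes it was highest in 40.6% and lowest in 42.7%. Its gap to the mean of the other OFF6 arrays was 1.23 log2 units for Adipoq, 0.97 for Fabp4, 0.67 for Lpl, 0.48 for Pparg, 0.39 for Retn, 0.37 for Cd36, 0.34 for Cidec and 0.17 for Plin4. The exception was Plin1, at -0.07. The median gap was 0.39 over the members and -0.01 over all genes.

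**Figure D3:**
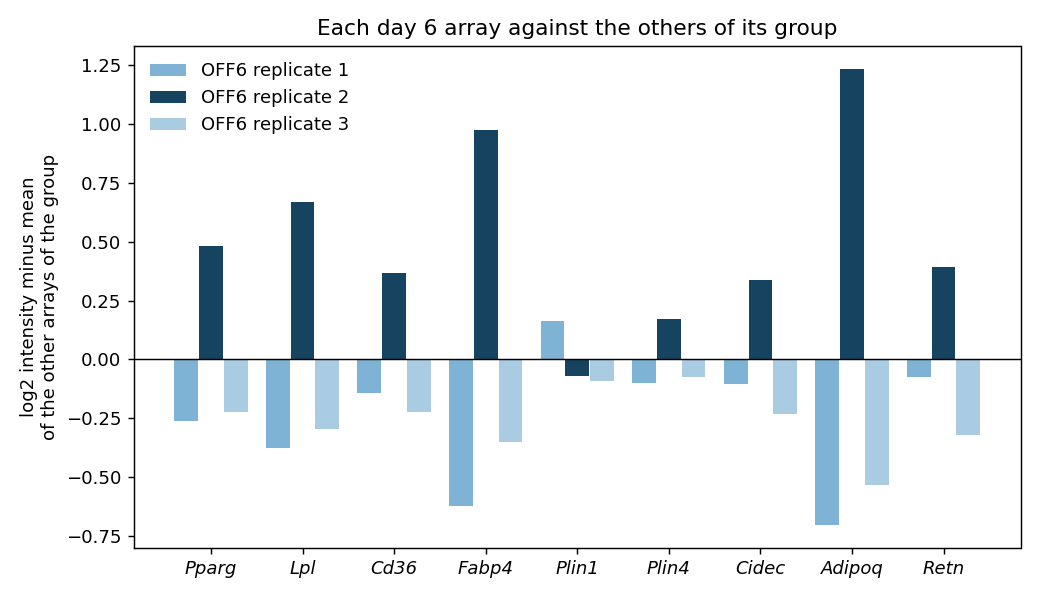
For each member (x axis), each OFF6 array's log2 intensity minus the mean of the other OFF6 arrays (y axis). Replicate 2 is above 0 for every member except Plin1 (-0.07), most for Adipoq (1.23) and Fabp4 (0.97).

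Markers of other cells moved on this array too. All 12 macrophage markers were highest in OFF6 replicate 2, with a summed intensity of 31257 against 22227 and 22528 in replicates 1 and 3. All 8 measured markers of fibro-adipogenic progenitors, the stromal cells of muscle that can form fat, were highest there as well (16801 against 10120 and 9999). Endothelial markers were highest there in 9 of 12 (5998 against 5295 and 5192), and muscle fibre markers in 3 of 12 (48182 against 48630 and 48772). The 5 measured markers that define fat cells (Adipoq, Plin1, Cidec, Lep and Retn) summed to 354 there against 268 and 251, with 4 of 5 highest. The part of these cells in the members' values was not tested.

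Set against the comparison of groups, the same marker sums showed other orders. Fat cell markers summed to 1964 to 2060 in CTL, 236 to 253 in TUM, 250 to 287 in OFF3 and 251 to 354 in OFF6. All 5 were called higher in CTL than in TUM, as were 45.9% of all genes. With all arrays weighted equally, none was called between tumour groups. Array weights called Adipoq and Cidec higher in OFF3 than in TUM, and Cidec lower in OFF6 than in OFF3. No listed marker was at 0 on any array, which does not show detection, since the values carry no detection calls. Lep, the gene of the fat cell hormone leptin, read 6.02 ± 0.18 in CTL, 4.74 ± 0.11 in TUM, 4.83 ± 0.14 in OFF3 and 4.92 ± 0.10 in OFF6 (log2, SD, n = 3). Progenitor markers summed to 7221 to 7342 in TUM, 13330 to 15431 in OFF3, 9999 to 16801 in OFF6 and 14868 to 15558 in CTL. Of these 8 progenitor markers, 5 were called higher at day 3 and none lower, beside 13.4% and 16% of all genes.

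Macrophage markers ran the other way between muscle and tumour. Their sum was 4211 to 4707 in CTL and 26507 to 27322 in TUM, with 12 of 12 lower in muscle, where all 9 members were higher. Of 19937 genes, 6038 were called lower and 9161 higher in muscle. The macrophage sum stayed above that of muscle after doxycycline removal. It was 30326 to 31597 in OFF3 and 22227 to 31257 in OFF6. Endothelial markers summed to 8418 to 8702 in CTL, 4435 to 4584 in TUM, 6421 to 6926 in OFF3 and 5192 to 5998 in OFF6, and 12 of 12 were called higher at day 3. Muscle fibre markers were called higher at day 3 in 11 of 12, where 13.4% of all genes were. Lpl fell from day 3 to day 6. Called lower then were 5 of 12 endothelial, 2 of 12 macrophage and none of 8 progenitor markers, beside 4.38% of all genes. Among the progenitor markers 1 was called higher, beside 6.05%. With OFF6 replicate 2 left out, 9 endothelial, 11 macrophage and 7 progenitor markers were called lower and 1 progenitor marker higher. Of 19937 genes, 2473 were then called lower and 2401 higher. The share of all genes called in either direction went from 10.4% to 24.4%. The part of these cells in the changes of Pparg, Cd36, Plin4 and Lpl was not tested.

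Wider lists of lipid genes, with the members set aside, were described by their counts. For all these lists, the shares over all genes were 13.4% called higher and 16% lower at day 3, and 14.9% and 16.6% at day 6. Of 11 further transcription factors of fat cell formation, 8 rose and 1 fell at day 3, and 5 rose and 1 fell at day 6. Ebf2, a factor of brown and beige fat precursors, rose by 1.10 ± 0.24 and 1.07 ± 0.24 log2 units, and Srebf1, the activator of lipid synthesis, fell (-0.28 ± 0.07 and -0.41 ± 0.07). The day 6 mean of Ebf2 leaned on OFF6 replicate 2, as the OFF6 arrays read 7.10, 8.32 and 7.24. That array lay 1.14 above the mean of replicates 1 and 3. Mlxipl, the carbohydrate-response factor ChREBP, was 3.81 ± 0.09 higher in muscle than in TUM. Among the 9 lists, this one and triglyceride synthesis had the largest share of genes called higher at day 3.

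Of 9 measured triglyceride synthesis genes, 5 rose and 1 fell at day 3 and 4 rose and 1 fell at day 6. Gpd1, which makes the glycerol backbone, rose by 2.14 ± 0.14 and 2.38 ± 0.14, and was 4.86 ± 0.14 higher in muscle. Agpat2, an acyltransferase of the same pathway, fell at both times (-0.45 ± 0.08 and -0.44 ± 0.08). The phosphatase Lpin1, also in the fatty acid oxidation list, rose by 1.05 ± 0.06 and 0.99 ± 0.06.

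Fatty acid synthesis genes moved the other way. Of 8 genes, 7 fell and none rose at day 3, and 7 fell and 1 rose at day 6, with medians of -0.80 and -0.66 beside 0.02 and 0.05 over all genes. The elongase Elovl6 fell most (-1.79 ± 0.14 and -1.54 ± 0.14), and the desaturase Scd2 fell as well (-0.89 ± 0.19 and -0.70 ± 0.19). In Scd2, OFF6 replicate 2 differed by -0.83 from the mean of replicates 1 and 3. Thrsp, a lipogenic gene of fat and liver, rose at day 6 (0.41 ± 0.08). Elovl6 (-1.92 ± 0.14) and Scd2 (-2.41 ± 0.19) were also lower in muscle than in TUM, where the list had 5 lower and 2 higher. Of 19937 genes, 6038 were called lower and 9161 higher in that comparison.

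Lipid droplet proteins other than the members were mixed, with 3 higher and 4 lower of 12 at day 3 and 2 higher and 4 lower at day 6. Of all genes, 29.4% were called at day 3 and 31.5% at day 6, beside which the counts of this paragraph stand. Fitm1, a muscle protein that partitions fat into droplets, rose (1.28 ± 0.10 and 0.93 ± 0.10), while Cavin1, a coat protein of caveolae, fell (-0.93 ± 0.07 and -0.75 ± 0.07). Among 8 other uptake and binding genes, 1 rose and 1 fell at day 3 and 2 rose and 4 fell at day 6. The lipoprotein receptor Vldlr rose (1.5 ± 0.12 and 0.85 ± 0.12). Of 6 measured lipolysis genes, 2 rose and 1 fell at day 3 and 3 rose and 1 fell at day 6. The natriuretic peptide receptor Npr1 rose (0.45 ± 0.09 and 0.43 ± 0.09) and the monoglyceride lipase Mgll fell (-0.39 ± 0.06 and -0.35 ± 0.06). In CTL minus TUM, Pnpla2, the lipase that starts fat breakdown, was 1.77 ± 0.09 higher and the phosphodiesterase Pde3b was lower in muscle (-2.19 ± 0.20). With OFF6 replicate 2 left out, 2 of the 6 fell at day 6 in place of 1.

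Among 10 other adipokine and receptor genes, 3 rose and 2 fell at day 3 and 4 rose and 1 fell at day 6. The insulin-responsive glucose transporter Slc2a4 rose by 1.80 ± 0.12 and 0.62 ± 0.12, and the retinol carrier Rbp4 by 1.08 ± 0.18 and 0.83 ± 0.18. In Rbp4, OFF6 replicate 2 lay 0.88 above the mean of replicates 1 and 3. Apln, the gene of apelin, fell at day 3 (-0.51 ± 0.13), and the adiponectin receptor gene Adipor2 fell at both times (-0.33 ± 0.06 and -0.23 ± 0.06). With members included, 1 of 12 genes of that list fell at day 6, and 3 did with OFF6 replicate 2 left out. The leptin receptor gene Lepr was lower in muscle than in TUM (-0.80 ± 0.22). Of 7 thermogenic genes, 2 rose and 1 fell at each time. Ucp1, Cidea, Elovl3 and Prdm16 were called at neither time. Mean Ucp1, the uncoupling protein gene of brown fat, was low in every group (4.85 in CTL, 4.78 in TUM, 4.76 in OFF3 and 4.83 in OFF6). The deiodinase Dio2 (0.77 ± 0.07 and 1.32 ± 0.07) and the mitochondrial regulator Ppargc1a (1.08 ± 0.15 and 0.91 ± 0.15) rose, and Zic1, a marker of brown fat, fell (-0.80 ± 0.10 and -0.69 ± 0.10). In muscle fatty acid oxidation, 3 of 13 rose and 1 fell at day 3, and 8 rose and none fell at day 6. The day 3 counts of the lists in this paragraph stand beside 13.4% of all genes called higher and 16% lower. At day 6 these shares were 14.9% and 16.6%. The mitochondrial carrier Ucp3 rose by 0.94 ± 0.08 and 1.08 ± 0.08, and the kinase Pdk4 fell at day 3 only (-0.24 ± 0.08, adjusted p = 0.0378 in limma; 0.10 ± 0.08 at day 6). All 13 were higher in muscle than in TUM, as were all 9 members and 45.9% of all genes.

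**Figure D4:**
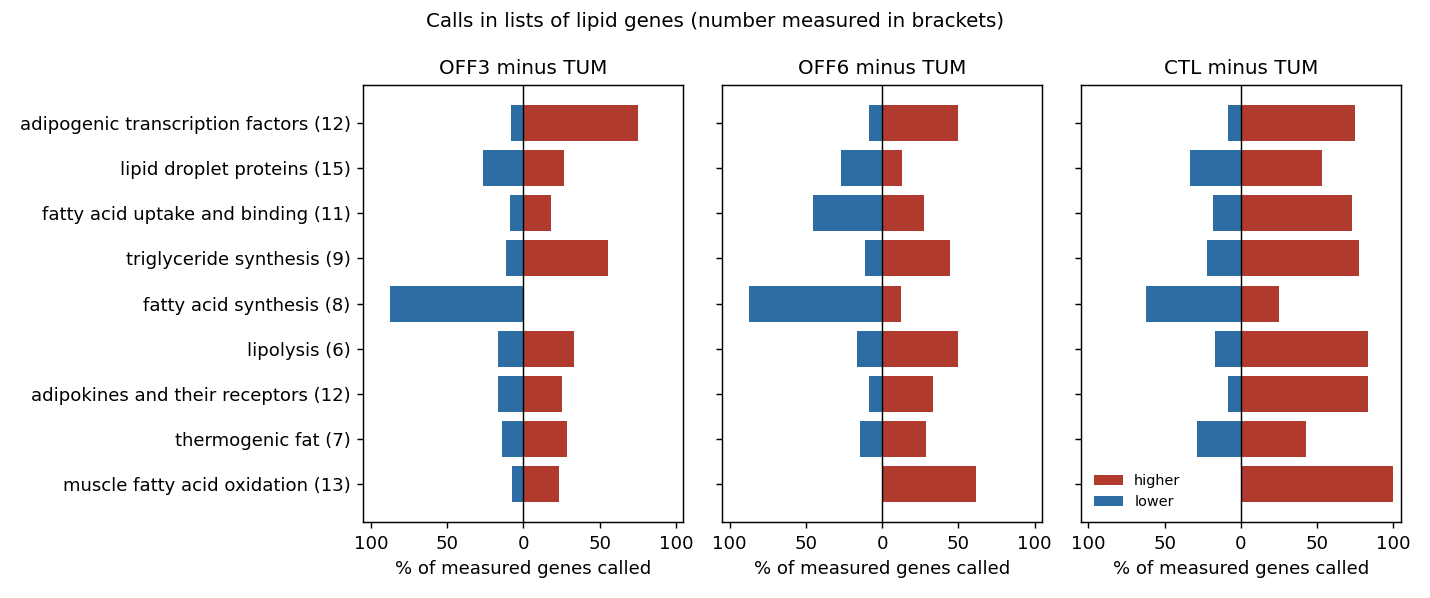
Percentage of the measured genes of each list, members included, called higher (right of 0) or lower (left of 0) in OFF3, OFF6 and CTL, each against TUM. Fatty acid synthesis genes are mostly lower at both times (7 of 8), and transcription factors of fat cell formation mostly higher at day 3 (9 of 12).

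The genes whose profile over the 12 arrays lay nearest to that of Adipoq were found after taking each gene's mean off. They were Cd36 (root mean square difference 0.26 log2 units), Nr4a3 (0.27), Pex11a (0.28), Atp2b3 (0.29) and Fmc1 (0.31). Cd36, a member, thus lay closest, although its OFF6 replicate 2 gap was 0.37 and that of Adipoq 1.23. Nearest to Lpl were Nqo1 (0.21), Cntfr (0.24), Aldh6a1 (0.25), Gpd2 (0.25) and Slc38a4 (0.29). All 10 were higher in muscle than in TUM, by 2.27 (Slc38a4) to 3.13 (Cntfr). Of the Lpl neighbours, Gpd2 (-0.92 ± 0.06) and Slc38a4 (-0.85 ± 0.15) were, like Lpl, called lower at day 6 than at day 0. These genes were picked for closeness over the same 12 arrays, so a like pattern follows from the choice and is no separate result.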

How the data were processed

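RNA of whole tissue was labelled with biotin as cRNA for 1-colour mouse arrays, per the labels' protocols. The authors deposited 1 intensity per probe set and array, linear in scale and made with RMA per the submitters' processing notes (version not given in the sources used here). Of 34760 probe sets, 21640 had a single symbol in the annotation used, 1321 had several and 11799 had none. Those with a single symbol were kept, the brightest per gene, giving 19937 genes with no filter on low values. On log2 intensity, limma 3.58.1 (lmFit and eBayes; R 4.3.3, statmod 1.5.0, version 1.17.8 of data.table) estimated 4 group means from the 12 arrays. Each of 6 comparisons was tested two-sided with Benjamini-Hochberg adjustment over all genes. Precision is limited by the 3 arrays per group, with a median standard error of 0.086 log2 units. Plots used matplotlib 3.10.9 in Python 3.11.15.

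The members and the gene lists were chosen with earlier results of these data known. Genes named beside the members were those with the largest called rise and fall of each list in the 3 comparisons with TUM, the fat cell markers, and the 5 nearest profiles to Adipoq and to Lpl. The windows before gene starts came from RefSeq (GRCm38.p6), with no entry for Fabp4 and Lpl. No arrays held identical values. Same-numbered arrays did not deviate together (correlations from -0.39 to 0.25), so the numbers were not taken as pairs. Each result was recomputed under 21 alternatives. In a simulation of OFF3 minus TUM over 19937 genes, 82.1%, 94.0% and 100% of genes changed 1.5-, 2- and 4-fold were recovered, and 4.66% of calls fell on unchanged genes. Only 67, 67 and 66 genes were changed at these folds, with noise drawn independently for each gene and array. In the data 29.4% of genes were called, so these figures do not measure the accuracy of the calls above.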

Additional observations from a re-analysis of the deposited data

Results flagged for a closer look

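With all arrays weighted equally, Lpl was the member whose change from day 0 was called different between the 2 times after doxycycline removal. Its difference from TUM was 0.07 at day 3 and -0.61 at day 6, and the test of OFF6 minus OFF3 gave -0.68 log2 units (adjusted p = 0.0135 in limma), with 3 of 3 OFF6 arrays below every OFF3 array. The call was lost without OFF3 replicate 1 (adjusted p = 0.0523), OFF6 replicate 1 (0.067) or OFF6 replicate 3 (0.0756), and when just the 6 arrays compared were fitted (0.124). Without OFF6 replicate 2, Fabp4 (-0.71, adjusted p = 0.00226) and Pparg (-0.41, adjusted p = 0.00484) were called between these times too. Single arrays were not tested as outliers within their groups.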

How the results depend on the processing

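Of 54 results (9 members in 6 comparisons), 36 kept their direction and side of the threshold under all of the 21 alternatives that gave them a value (4 members drop out where only genes above the median level are tested). Over all 1110 values recomputed, 4 lost a call, 20 gained one and 20 changed sign, none of the last being called. The replicate block left all 54 on the same side, with 3, 3, 1, 9, 8 and 8 members called in OFF3 minus TUM, OFF6 minus TUM, OFF6 minus OFF3, CTL minus TUM, OFF3 minus CTL and OFF6 minus CTL. Array weights raised the first 3 counts to 5 each, and asking for a 2-fold change lowered each to 0. In OFF6 minus OFF3 the count was also 0 when just the 6 arrays compared were fitted, as it was at an adjusted p under 0.01 in limma, and 0 to 3 when 1 array was left out. With only genes above the median level, the counts against CTL were 5, 4 and 4, since only 5 members were then tested. Sign changes in OFF3 minus TUM were Plin1 with quantile normalisation (-0.047), centring (-0.0095) and cyclic loess (-0.036), with -0.033 to 0.064 when 1 array was left out, and Fabp4 with array weights (-0.14). In OFF6 minus TUM they were Retn (-0.0038) and Cidec (-0.0074) with array weights. In OFF6 minus OFF3, array weights gave -0.10 for Retn, -0.10 for Adipoq and -0.032 for Cd36. Leaving out 1 array there gave -0.087 to 0.151 for Retn, -0.12 to 0.53 for Adipoq, -0.147 to 0.094 for Cidec and -0.057 to 0.139 for Cd36. In OFF3 minus CTL, Pparg was -0.19 with quantile normalisation, -0.11 with centring and -0.027 with cyclic loess. The cause of these shifts was not tested. The files hold no background level, so how far low readings stand above it is not known.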
